A study of Mus musculus with 2 samples.

Results

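Gene expression in hearts of line 9 (L9) of the αMHC/miR-143/145TG mice was compared with that of line 19 (L19) on the 2 cDNA microarrays of the study, 1 array for each line. Both lines carry a transgene in which the αMHC promoter, which is active in cardiomyocytes, drives the primary transcript that holds miR-143 and miR-145. L9 and L19 are separate transgenic lines made from B6D2F1 eggs, and their progeny were backcrossed to C57BL/6J, so a line also carries whatever its own founder and matings left in its genome. On both arrays heart RNA of 3-month old male transgenic (TG) mice was labeled with Cy3 and heart RNA of non-transgenic (NTG) mice with Cy5, and the NTG RNA carries the same label on both arrays. The question was how far the lines differ from each other in gene expression, apart from what they share against NTG. Each line was represented by 1 RNA, and the sources used here do not say how many mice went into it. There is thus no replicate within a line, line and array cannot be told apart, and the differences below are given as values without a test.

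For each probe the log2 ratio of TG to NTG was taken on each array, and the difference of the lines is the L9 log2 ratio minus the L19 log2 ratio. A positive difference means a higher level in L9. Of the 23473 distinct gene probes of the array, 17645 were above the blank spots in both channels of both arrays. With the brightest probe standing for a gene, they gave 17485 genes or unnamed probes, of which 12779 were named genes, and "measured" below refers to these. The signals quoted are normalized to arbitrary units, with each array's NTG signals scaled to the same median, so that the 4 channels of 1 probe can be set side by side. Signals of different probes cannot. The labels were not swapped, with TG in Cy3 and NTG in Cy5 on both arrays. A probe's dye effect and a difference of TG from NTG therefore cannot be told apart. This limit holds wherever a line is said below to lie above, below or at NTG. A dye effect that is equal on both arrays drops out of the difference of the lines.

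MiR-143 and miR-145 are best known from smooth muscle, where they are made from 1 primary transcript, and an adult cardiomyocyte normally makes little of either. Several gene groups described below respond to the state of the animal or of the heart rather than to a cell's identity. Glucocorticoids released from the adrenal gland bind the glucocorticoid receptor, which enters the nucleus, binds a palindromic DNA element and switches on genes such as Fkbp5, Tsc22d3 and the metallothioneins. Hearts under load re-express natriuretic peptides and other genes of the fetal heart, fibroblasts lay down collagens and matricellular proteins, and resident and recruited macrophages change in number and state.

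The difference of the lines had a median of 0.00 and an SD of 0.42 over the 17485 measured genes and probes. For the 2 readings of the NTG RNA, 1 per array, the SD of the difference was 0.27, and for the TG signals it was 0.41. A difference of at least 1.5-fold, the cutoff used in the study's methods, was reached by 1246 genes or probes that were higher in L9 (7.13%) and by 1097 that were lower (6.27%). The NTG channels carry the same label on both arrays and were taken as the same RNA, which the sources used here do not state outright. Among their readings 754 were as far apart (4.31%). Precision depended on signal. In the upper 50% of mean signal, above 34.4 units, the SD of the difference was 0.28, that of the NTG readings was 0.18, and 161 genes or probes were at least 1.5-fold higher in L9 (1.84%) and 217 lower (2.48%), against 83 NTG readings that far apart (0.949%). In the lower 50% these SDs were 0.52 and 0.33. Values of dim genes are therefore less certain, and the shares among all and among the upper 50% are the background for the counts below. Among dim genes the shares past 1.5-fold are larger than among all, so a count made up of dim members has a larger background. The NTG values are not a like measure of error. The difference of the lines carries the error of both channels of both arrays, and that of the NTG readings only the error of the Cy5 channels. How much of the wider spread lies in the lines themselves was not tested. In both lines and in both NTG readings the RNA had the expression of a heart, with 12 of 13 cardiomyocyte markers measured, all 12 of them in the upper 50% of signal.

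**Figure D1:**
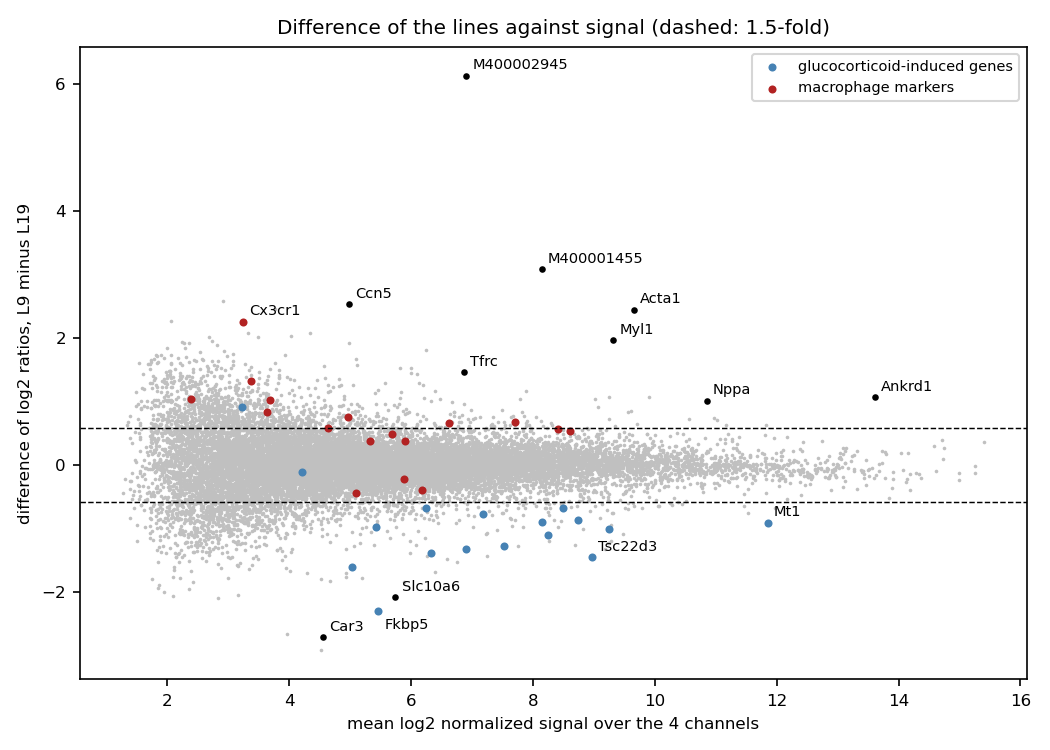
Difference of the log2 ratios to NTG, L9 minus L19 (vertical axis), against the mean log2 signal of the 4 channels (horizontal axis), with 1 dot for each of the 17485 measured genes or probes and dashed lines at 1.5-fold. Most glucocorticoid-induced genes (blue) lie below the lower line and 14 of 17 macrophage markers (red) lie above 0, while the cloud narrows towards bright genes.

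Genes that glucocorticoids induce were lower in L9 than in L19 by the widest margin of any group examined. All groups were chosen with earlier results of these data known, so this rank is a description and no test. Of 17 measured members of a list of 19, 15 were at least 1.5-fold lower in L9 and 1 was higher, with a median difference of -0.98, beside 6.27% lower and 7.13% higher among all measured genes and probes. All 14 members in the upper 50% of signal were at least 1.5-fold lower, where 2.48% of all were. The list's median log2 ratio to NTG was -0.19 in L9 and 0.66 in L19. For Zbtb16 and Cebpd no probe is named here.

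Fkbp5 encodes a cochaperone of Hsp90 that binds the glucocorticoid receptor and is itself one of its most responsive targets. Its signal was 28.3 in L9 and 158 in L19 hearts, against 27.2 and 31.0 in the NTG readings, a 4.92-fold lower level in L9 relative to NTG (difference of -2.30). L9 thus stood at the NTG level and only the L19 signal was apart from the other 3. Tsc22d3, a leucine zipper protein that carries much of the anti-inflammatory action of glucocorticoids, showed the same order with 356 in L9 and 1197 in L19 hearts, against 349.6 and 429.6 in the NTG readings (difference of -1.45). Errfi1, an inhibitor of the epidermal growth factor receptor, had a signal of 65.0 in L9 and 164 in L19 hearts, against 63.7 and 61.3 in the NTG readings (difference of -1.39). For Cdkn1a, the cyclin-dependent kinase inhibitor p21, the signals were 26.5 in L9 and 88.7 in L19 hearts, against 21.2 and 23.2 in the NTG readings (difference of -1.61). In these 4 genes the L9 heart lay within 1.5-fold of NTG and the L19 heart well above it.

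Several members lay below NTG in L9 and above it in L19. Klf15, a transcription factor of amino acid and lipid use in muscle, was at 74.0 in L9 and 191 in L19 hearts, against 118 and 121 in the NTG readings (difference of -1.33), past 1.5-fold from NTG on opposite sides, as 55 of all measured genes and probes were (0.315%). Pdk4, the kinase that shuts off pyruvate dehydrogenase, was at 193 in L9 and 423 in L19 hearts, against 318 and 325 in the NTG readings (difference of -1.10). Sgk1, a kinase that controls ion channels, had log2 ratios to NTG of -0.63 in L9 and 0.14 in L19, though the NTG readings of this probe were themselves apart (134 beside L9 and 188 beside L19). Similar ratios were found for Glul, glutamine synthetase (-0.63 in L9 and 0.27 in L19), and for Klf9, a transcription factor (-0.63 in L9 and 0.23 in L19). Ddit4, which restrains the growth kinase complex mTORC1, had ratios of -0.17 in L9 and 1.10 in L19, with NTG readings of 183 and 133.

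The metallothioneins, small metal-binding proteins that glucocorticoids and metals both induce, belonged to the brightest members. Mt1 was at 3375 in L9 and 5661 in L19 hearts, against 3328 and 2971 in the NTG readings (difference of -0.91). The signals of Mt2 were 596 in L9 and 1177 in L19 hearts, against 443 and 436 in the NTG readings (difference of -1.00). Sult1a1, a sulfotransferase, Dusp1, a phosphatase of MAP kinases, and Per1, a repressor of the circadian clock, had differences of -0.98, -0.69 and -0.67. Lcn2, a secreted lipocalin, did not reach 1.5-fold (-0.11). Angptl4, an inhibitor of lipoprotein lipase, was the 1 member that was higher in L9, with a difference of 0.91 at low signals (13.8 in L9 and 6.30 in L19 hearts, against 10.2 and 8.79 in the NTG readings).

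**Figure D2:**
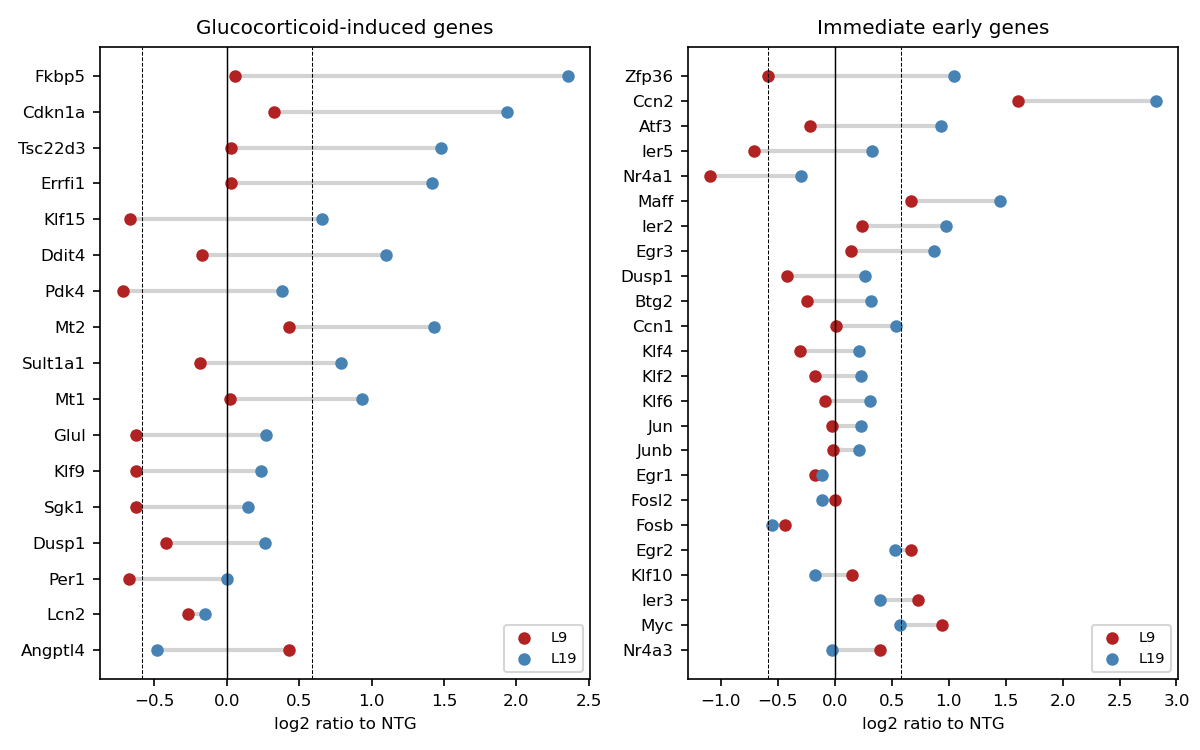
Log2 ratio to NTG (horizontal axis) of each measured glucocorticoid-induced gene (left) and immediate early gene (right) in L9 (red) and L19 (blue), 1 RNA per point, with dashed lines at 1.5-fold. The L19 point lies to the right of the L9 point for 16 of 17 glucocorticoid-induced genes and 17 of 24 immediate early genes.

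Of the 12 named genes with the lowest differences in the upper 50% of signal, 3 were members of that list (Fkbp5, Tsc22d3 and Errfi1). The other 9 were Smim3, Slc10a6, Hddc3, Rasd1, Rasgef1b, Map3k6, Arrdc2, Irs2 and Stard10. Slc10a6, a transporter of sulfated steroids, had a signal of 42.8 in L9 and 158 in L19 hearts, against 37.6 and 32.8 in the NTG readings (difference of -2.08). Rasd1, a Ras-like protein first found as a dexamethasone-induced transcript, was at 27.1 in L9 and 85.2 in L19 hearts, against 29.4 and 26.8 in the NTG readings (difference of -1.78). For Map3k6, a kinase of the stress-activated MAP kinase pathway, the values were 84.7 in L9 and 302 in L19 hearts, against 65.4 and 80.5 in the NTG readings (difference of -1.53). In all 3 the L19 heart was the high one, and the L9 heart differed from NTG by less than 1.5-fold.

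Hddc3, a predicted nucleotide hydrolase, had signals of 41.0 in L9 and 175 in L19 hearts, against 37.8 and 44.6 in the NTG readings (3.61-fold lower in L9). Rasgef1b, an activator of Ras-family GTPases, was 3.22-fold lower in L9, with log2 ratios to NTG of 0.08 in L9 and 1.77 in L19. Smim3, a small membrane protein, Arrdc2, an arrestin-domain protein, and Irs2, an adaptor of the insulin receptor, lay below NTG in L9 and above it in L19. The signals of Smim3 were 24.2 in L9 and 99.9 in L19 hearts, against 57.6 and 55.5 in the NTG readings. Those of Arrdc2 were 57.5 in L9 and 159 in L19 hearts, against 98.7 and 97.4 in the NTG readings. Irs2 stood at 49.9 in L9 and 128 in L19 hearts, against 75.5 and 71.4 in the NTG readings, so the L9 and L19 values enclosed both NTG readings in all 3 genes. Stard10, a lipid transfer protein, was below NTG in both lines and further in L9 (-2.04) than in L19 (-0.64).

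The promoters of these genes were searched for the glucocorticoid receptor's palindrome, spelled GNACANNNTGTNC and read on both strands, in the 250 bases upstream of each RefSeq gene start (GRCm38.p6). It occurred in 127 of 32851 such windows (0.387%), in 2 of the 26 windows of 16 glucocorticoid-induced genes (Sgk1 and Mt1) and in 2 of the 13 windows of 10 of the 12 lowest genes (Slc10a6 and Map3k6). None of the 11 windows of 9 of the 12 highest genes of the upper 50% held it. The 4 windows are printed because these 4 genes were all lower in L9, with the palindrome in capitals. They were thus picked by their values. Whether other genes with the palindrome differ between the lines was not tested, and 2 windows in each group are too few to compare shares. A match is a description of the letters only, and Fkbp5, Tsc22d3 and Klf15 had none in this window.
Sgk1 (chr10:21993640-21993889, + strand, 1 of 6 windows of the gene): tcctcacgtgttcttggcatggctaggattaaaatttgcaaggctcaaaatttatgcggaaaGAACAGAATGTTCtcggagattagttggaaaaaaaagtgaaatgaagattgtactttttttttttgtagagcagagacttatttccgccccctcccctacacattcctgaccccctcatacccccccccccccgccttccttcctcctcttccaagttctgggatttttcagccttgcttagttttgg
Mt1 (chr8:94178839-94179088, + strand): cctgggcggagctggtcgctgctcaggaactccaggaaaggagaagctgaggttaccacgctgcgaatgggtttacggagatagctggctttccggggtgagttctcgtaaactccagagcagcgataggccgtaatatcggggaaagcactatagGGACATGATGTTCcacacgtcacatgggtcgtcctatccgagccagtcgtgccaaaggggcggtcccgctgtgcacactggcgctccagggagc
Slc10a6 (chr5:103629404-103629653, - strand): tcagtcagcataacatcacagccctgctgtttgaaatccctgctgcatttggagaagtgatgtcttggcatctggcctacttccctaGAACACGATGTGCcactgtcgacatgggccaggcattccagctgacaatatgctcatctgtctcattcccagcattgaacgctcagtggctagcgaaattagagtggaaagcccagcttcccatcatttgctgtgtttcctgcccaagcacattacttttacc
Map3k6 (chr4:133240568-133240817, + strand): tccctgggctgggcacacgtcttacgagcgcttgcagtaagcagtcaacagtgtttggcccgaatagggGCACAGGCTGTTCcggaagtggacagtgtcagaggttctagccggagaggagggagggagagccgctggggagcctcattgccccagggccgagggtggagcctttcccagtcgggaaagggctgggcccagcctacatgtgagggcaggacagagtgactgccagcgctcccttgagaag

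Immediate early genes, whose transcripts appear within minutes of a stimulus and are short-lived, were on balance lower in L9 as well. Of 24 measured members, 9 were at least 1.5-fold lower and 0 were higher, with a median difference of -0.46. Ccn2, the secreted connective tissue growth factor, was above NTG in both lines, with a signal of 424 in L9 and 1028 in L19 hearts, against 139 and 146 in the NTG readings (difference of -1.20). Zfp36, which binds and destabilizes cytokine mRNAs, was at 9.53 in L9 and 29.6 in L19 hearts, against 14.3 and 14.3 in the NTG readings (difference of -1.63). Atf3, a stress-induced transcription factor, Ier5, a regulator of heat shock factor, and Maff, a small Maf protein, had differences of -1.15, -1.04 and -0.78. Nr4a1, an orphan nuclear receptor, was below NTG in both lines and further in L9 (-1.09) than in L19 (-0.30). Dusp1 belongs to both lists. Not every early gene took part. Egr1, Fosl2, Jun and Junb differed by -0.07, 0.11, -0.25 and -0.23, and Myc and Ier3 had positive differences (0.37 and 0.33).

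In the list of the integrated stress response, which amino acid shortage and other stresses set off, 5 of 26 members were at least 1.5-fold lower in L9 and 2 were higher, with a median difference of 0.04. Cebpb, a transcription factor shared with the acute phase response, was at 251 in L9 and 606 in L19 hearts, against 439 and 439 in the NTG readings (difference of -1.27). Chac1, which degrades glutathione, and Cth, which makes cysteine, had differences of -1.06 and -0.90. The remaining lower members, Ddit4 and Atf3, were given above with other lists. On the other side Psat1, an enzyme of serine synthesis, and Mthfd2, a mitochondrial folate enzyme, were higher in L9 (0.83 and 0.84), and Mthfd2 was above NTG in both lines (1.68 in L9 and 0.84 in L19). Of 24 measured genes of protein folding in the endoplasmic reticulum 20 were below 0 and 4 above, with a median of -0.22, and 2 were at least 1.5-fold lower in L9 and 1 was higher. Herpud1, a component of the degradation of misfolded proteins, was at 336 in L9 and 788 in L19 hearts, against 751 and 766 in the NTG readings, so L9 was the low sample and L19 matched NTG. Sdf2l1, a chaperone of the same compartment, showed this too (-1.28 in L9 and -0.22 in L19). The 1 higher gene was Derl3, of the same degradation pathway (1.40), at 7.40 in L9 and 4.97 in L19 hearts, against 2.76 and 4.90 in the NTG readings, all near the limit of detection.

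The insulin and insulin-like growth factor list had a median difference of -0.25, with 16 of 24 members below 0, 4 at least 1.5-fold lower in L9 and 2 higher. Beside Irs2, the lower ones were Igf1r, the receptor of insulin-like growth factors (-0.84), Pik3r1, the regulatory subunit of phosphoinositide 3-kinase (-0.76), and Igfbp3, a binding protein (-0.72). Unlike Irs2, Igf1r was above NTG in both lines (log2 ratios of 0.62 in L9 and 1.46 in L19). So was Igfbp3 (0.50 in L9 and 1.23 in L19). Igf1 and Foxo3 were higher in L9 (0.95 and 0.98), both at low signals, and the NTG readings of Foxo3 were 9.55 and 4.12. The list of nuclear receptors and coactivators of metabolism was balanced, with a median of -0.01, 12 of 26 members above 0 and 14 below, 2 at least 1.5-fold higher in L9 and 4 lower. Among the lower ones Ppara, a fatty acid sensor, was at 182 in L9 and 341 in L19 hearts, against 216 and 205 in the NTG readings (difference of -0.98), and Ppargc1a, its coactivator, at 471 in L9 and 918 in L19 hearts, against 438 and 477 in the NTG readings (difference of -0.84). The other lower ones were Klf15, given above, and Ppard (-1.11), which was dim. The related coactivator Ppargc1b and the transcription factor Prdm16 were on the other side (0.66 and 0.59). Among 21 genes of ketone and branched-chain amino acid breakdown, 17 were below 0 and 2 at least 1.5-fold lower (median of -0.33), namely Ppm1k, the phosphatase that activates the branched-chain dehydrogenase (-0.68), and Ivd, isovaleryl-CoA dehydrogenase (-0.61). Rgs2, an inhibitor of Gq signalling, was at 458 in L9 and 1037 in L19 hearts, against 552 and 529 in the NTG readings (difference of -1.24).

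Car3, carbonic anhydrase III of muscle and fat, had the lowest difference of all named genes. Its signal was 4.31 in L9 and 26.2 in L19 hearts, against 54.3 and 50.3 in the NTG readings, so both lines lay below NTG and L9 by far the more (6.56-fold lower than L19 relative to NTG). The L9 signal of Car3 was near the lowest one detected in that heart (3.35), so its fold and its rank are uncertain. Cfd, the complement factor adipsin that fat cells secrete, was at 11.8 in L9 and 37.6 in L19 hearts, against 44.5 and 43.4 in the NTG readings (difference of -1.70). Both are on the list of adipocyte markers, of which 3 of 12 measured members were at least 1.5-fold lower in L9 and 1 was higher (median of 0.09, 7 above 0 and 5 below). The third lower member was Ucp1, the uncoupling protein of brown fat (-0.69), which was dim. Adipoq, adiponectin, was at 2.36 in L9 and 3.53 in L19 hearts, against 13.6 and 12.3 in the NTG readings. Its TG signal was above the blank spots in L19 but not in L9. Both TG signals were near the limit of detection, so the order of the lines is uncertain for this gene. Plin1 and Lipe differed by -0.03 and -0.06. The 1 higher member was Retn, resistin (0.60), with NTG readings of 7.74 and 14.9. The summed signal of the list was 8399.9 in L9 and 5989 in L19 hearts, against 9826 and 8962 in the NTG readings, but most of it came from the probe of Fabp4 (6963 in L9 and 4825 in L19 hearts, against 8619 and 7722 in the NTG readings), so the sum says little of the other members. The part of fat cells in the values of Car3 and Cfd was not tested.

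In the opposite direction, macrophage markers were higher in L9 than in L19. Of 17 measured markers 8 were at least 1.5-fold higher in L9 (47.1%) and 0 were lower, with a median difference of 0.58. Among all measured genes and probes 7.13% were higher and 6.27% lower, with larger shares among dim ones. The list's median log2 ratio to NTG was 0.26 in L9 and -0.47 in L19. Fewer cells of a type and less RNA per cell cannot be told apart in whole hearts. Cx3cr1, the fractalkine receptor, was at 15.8 in L9 and 3.32 in L19 hearts, against 12.3 and 12.4 in the NTG readings (4.77-fold higher in L9). Its L19 signal was the low one of the 4, and was close to the limit of detection. Fcgr1, a receptor for immunoglobulin G, and Ccr2, the chemokine receptor of recruited monocytes, were lower in L19 than in the other channels too, with log2 ratios of 0.38 in L9 and -0.94 in L19 for Fcgr1 and of 0.30 and -0.71 in the same lines for Ccr2.

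The markers with the higher signals differed less. Of the 10 in the upper 50% of signal, 2 were at least 1.5-fold higher in L9 and the median difference was 0.43. The 3 chains of complement C1q, which tissue macrophages make, were among them. C1qc was at 251 in L9 and 152 in L19 hearts, against 226 and 218 in the NTG readings (difference of 0.67), and C1qa and C1qb differed by 0.53 and 0.56. Mrc1, the mannose receptor, had a difference of 0.76 and Adgre1, the antigen F4/80, of 0.84, in which NTG readings of 10.5 and 15.5 took part. The markers were not uniform. Cd14, Lyve1 and Cd163 had negative differences short of 1.5-fold (-0.45, -0.40 and -0.22), and Lyve1 is also made by lymphatic vessels. The summed macrophage signal was 1752 in L9 and 1238 in L19 hearts, against 1493 and 1456 in the NTG readings. Ccl12, a monocyte-attracting chemokine, was one of the 6 highest genes at 29.2 in L9 and 4.08 in L19 hearts, against 19.5 and 14.9 in the NTG readings (difference of 2.45), and C3ar1, the receptor of complement C3a, was 2.05-fold higher in L9. The L19 signal of Ccl12 was close to the limit of detection.

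Markers of other blood-derived cells had smaller median differences than the macrophage markers. Among 7 neutrophil markers 0 were at least 1.5-fold higher in L9 and 2 lower, with S100a9 at a difference of -1.09. Their median was 0.12, with 4 above 0 and 3 below. Among 11 lymphocyte markers 0 were that far higher and 1 lower, with a median of 0.14, 6 above 0 and 5 below. Most members of both lists were dim. The 1 bright member of each list was higher in L9, short of 1.5-fold (Ly6g at 0.50 and Ighm at 0.42). Whether these cells followed macrophages was not tested. Of 7 measured genes of red cells and platelets 3 were at least 1.5-fold higher in L9 and 1 was lower (median of 0.25). The 3 were the platelet genes Pf4, Ppbp and Gp9, with differences of 0.72, 0.86 and 0.95. The 1 lower gene was also of platelets, the integrin Itga2b (-1.00), at 6.85 in L9 and 5.37 in L19 hearts, against 3.67 and 1.44 in the NTG readings, where the NTG readings were apart and the TG signals themselves were in the other order. The signals of Pf4 were 129 in L9 and 82.9 in L19 hearts, against 139.9 and 148 in the NTG readings, so both lines were below both NTG readings and L19 the further.

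Matrix genes of fibroblasts were higher in L9. Among 46 measured matricellular and secreted matrix proteins 12 were at least 1.5-fold higher in L9 (26.1%) and 2 lower (4.35%), with a median difference of 0.26, and both lines were above NTG in their median (0.70 in L9 and 0.42 in L19). Postn, periostin of activated fibroblasts, was at 292 in L9 and 101 in L19 hearts, against 35.0 and 28.8 in the NTG readings (difference of 1.26). Mfap4, a protein of elastic fibres, was at 205 in L9 and 96.9 in L19 hearts, against 22.6 and 23.6 in the NTG readings (difference of 1.15). Ccn5, a matricellular protein of the same family as Ccn2, was at 102 in L9 and 17.4 in L19 hearts, against 23.9 and 23.7 in the NTG readings, a 5.78-fold higher level in L9, in which the L19 heart stood below NTG. Ltbp3, Ltbp2 and Fbn1, which anchor latent TGF-beta and microfibrils, had differences of 1.18, 0.97 and 0.95. Ltbp3 was dim, at 11.7 in L9 and 4.39 in L19 hearts, against 11.5 and 9.70 in the NTG readings. For Ltbp3 the L19 heart was thus the low sample, close to the limit of detection. The 2 members that were lower in L9 were Ccn2, given above, and Ccn3 (-1.03), so the CCN family was divided, with Ccn1 at -0.52.

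Of 32 measured genes of the collagen list, 6 were at least 1.5-fold higher in L9 and 1 was lower, while the median was 0.07. Col3a1, a fibrillar collagen, was at 965 in L9 and 392 in L19 hearts, against 476 and 397 in the NTG readings (difference of 1.04), so that L19 matched NTG and L9 was the high sample. Col1a1 had log2 ratios of 0.91 in L9 and 0.08 in L19. The crosslinking enzymes Loxl2 and Loxl1 differed by 1.18 and 0.84. Col27a1 was the gene on the other side (-1.25), at low signals. The fibroblast markers, 12 in number, had a median difference of 0.38, with 9 above 0 and 3 below. The 2 that were at least 1.5-fold higher were Col1a1 and Col3a1. Col1a2 and Lum differed by 0.58 and 0.43, short of 1.5-fold, and Pdgfra and Gsn by -0.11 and -0.06. The summed signals of the 12 markers were 14162 in L9 and 14272 in L19 hearts, against 8134 and 9171 in the NTG readings. Itgbl1, an integrin-like secreted protein, and Cd248, endosialin of stromal cells, were among the 12 highest genes of the upper 50% (1.28 and 1.18).

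**Figure D3:**
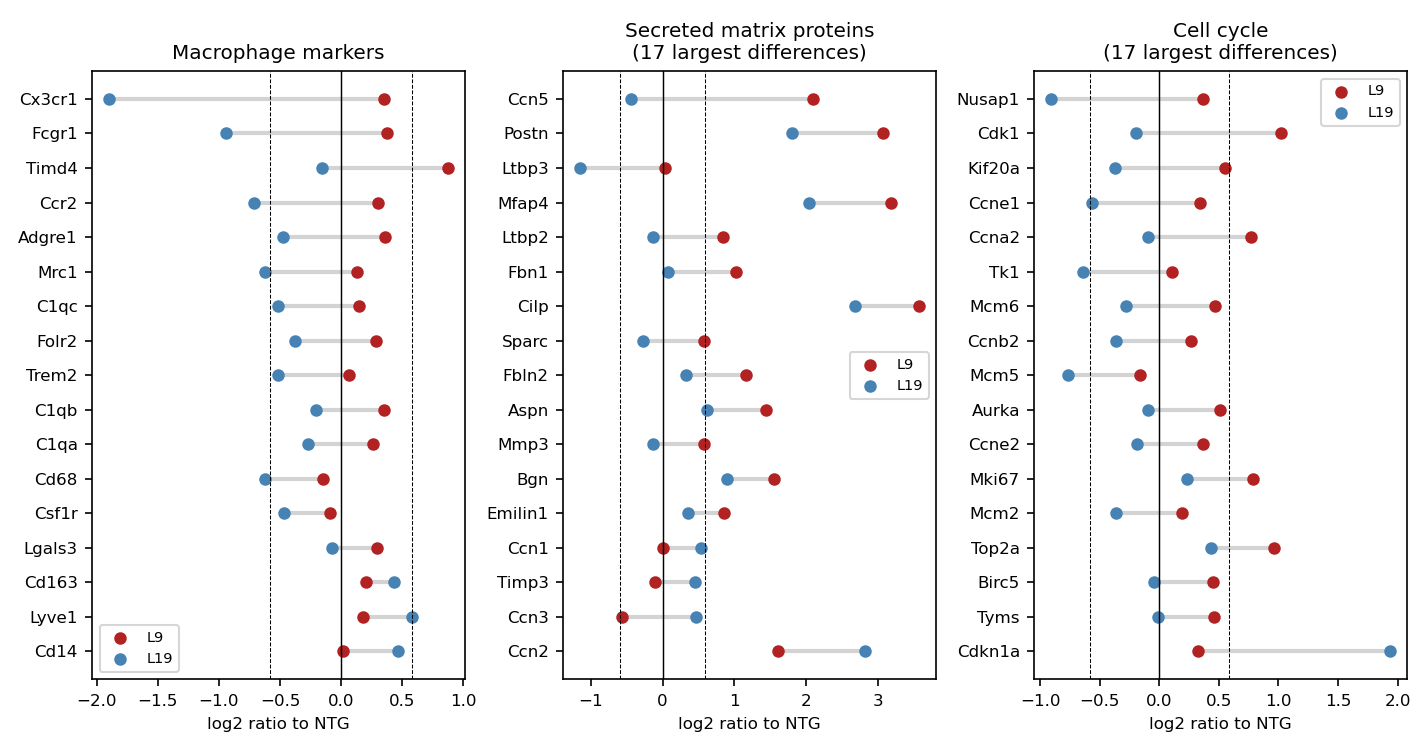
Log2 ratio to NTG (horizontal axis) in L9 (red) and L19 (blue) of all 17 measured macrophage markers and of the 17 members with the largest differences among secreted matrix proteins and among cell cycle genes, 1 RNA per point, with dashed lines at 1.5-fold. The L9 point lies to the right for most genes shown, and Ccn2 and Cdkn1a are set apart with L19 to the right.

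Cell cycle genes were higher in L9 where they were dim. Of 35 measured members 10 were at least 1.5-fold higher in L9 (28.6%) and 1 was lower (2.86%), with a median difference of 0.38. Among all measured genes and probes 7.13% were higher and 6.27% lower, and among dim ones these shares are larger. The 1 lower gene was the inhibitor Cdkn1a. Cdk1, the kinase that drives mitosis, was at 33.1 in L9 and 16.0 in L19 hearts, against 16.3 and 18.3 in the NTG readings (difference of 1.22), and Nusap1 and Kif20a, proteins of the mitotic spindle, differed by 1.27 and 0.93. Mki67 and Top2a, common marks of dividing cells, were above NTG in both lines and had differences of 0.55 and 0.53, short of 1.5-fold. None of the 10 lay in the upper 50% of signal, and the 12 members there had a median of -0.06.

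Genes of the muscle fibre itself and of the fetal programme differed one by one rather than as groups. Acta1, skeletal alpha-actin, which the fetal heart also makes, had the highest difference of all named genes of the upper 50%, with a signal of 1163 in L9 and 209 in L19 hearts, against 1333 and 1302 in the NTG readings. L9 thus matched NTG and L19 was the low sample (5.44-fold higher in L9, difference of 2.44). Myl1, a myosin light chain of fast skeletal muscle and embryonic heart, was at 1292 in L9 and 369.9 in L19 hearts, against 561 and 624 in the NTG readings (difference of 1.96), past 1.5-fold above NTG in L9 and below it in L19. The other skeletal muscle genes did not move with them. Of 18 measured skeletal muscle isoforms 2 were at least 1.5-fold higher in L9 and 1, Car3, was lower. Myh4, the myosin of fast fibres, was at signals of 6.96 in L9 and 4.73 in L19 hearts, against 4.80 and 4.68 in the NTG readings, and Myh1, Myh3 and Atp2a1 were above the blank spots in neither TG channel. The summed signal of the list was 19866 in L9 and 18012 in L19 hearts, against 21940.0 and 22041 in the NTG readings, most of it from Eno3, Smpx and Pgam2.

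The promoter of Acta1 is printed because it holds a CArG box, the element bound by serum response factor, which 1.47% of all windows hold and no other window of the 12 highest genes did. The box is in capitals.
Acta1 (chr8:123894776-123895025, - strand): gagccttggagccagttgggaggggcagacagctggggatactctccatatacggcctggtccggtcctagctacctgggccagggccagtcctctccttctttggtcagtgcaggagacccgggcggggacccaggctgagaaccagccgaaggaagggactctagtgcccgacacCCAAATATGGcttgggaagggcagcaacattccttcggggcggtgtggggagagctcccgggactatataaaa

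Natriuretic peptides and a stretch-responsive repressor were above NTG in both lines and more so in L9. Nppa, atrial natriuretic peptide, was at 7013 in L9 and 3453 in L19 hearts, against 699.9 and 695 in the NTG readings (difference of 1.01). Ankrd1, the cardiac ankyrin repeat protein, was at 29579 in L9 and 15469 in L19 hearts, against 7012 and 7652 in the NTG readings (difference of 1.06). Nppb, the B-type peptide, had a difference of 0.48, short of 1.5-fold. Other genes of the fetal programme were on the other side. Corin, the protease that activates natriuretic peptides, was at 1042 in L9 and 1599 in L19 hearts, against 910.3 and 889 in the NTG readings (difference of -0.65), Myl7, the atrial light chain, was dim with a difference of -1.38, and Myh7, the fetal myosin heavy chain, differed by -0.41. Over 14 measured members the median was -0.27, and 0.03 over the 11 in the upper 50% of signal. Of 11 atrial markers, 1 (Nppa) was higher and 2 (Myl7 and Tbx5) were lower in L9.

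**Figure D4:**
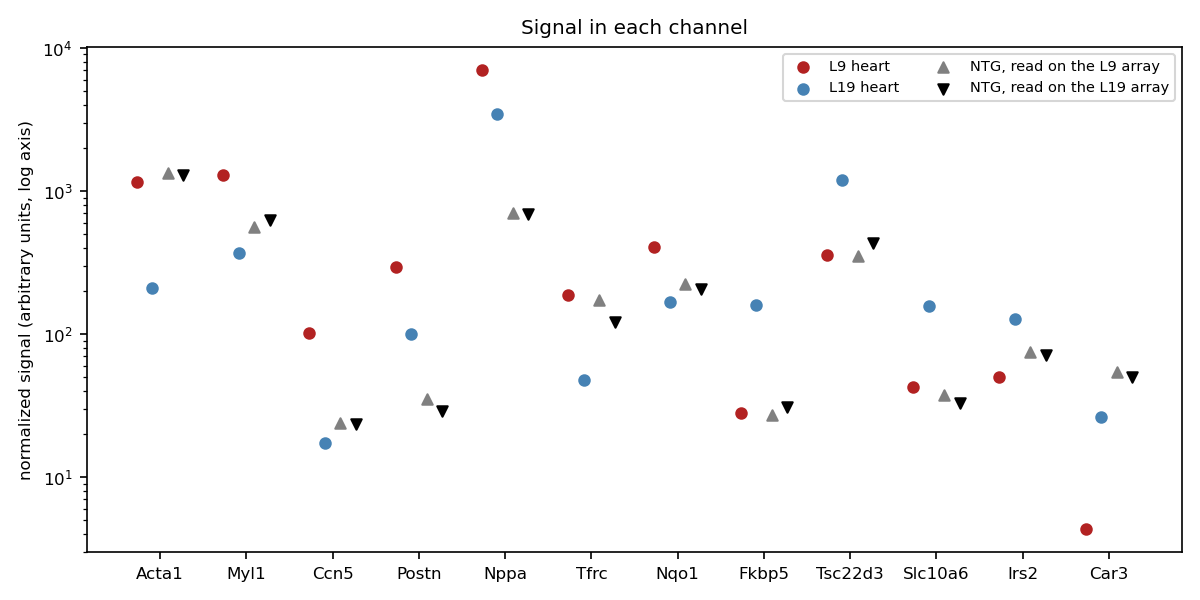
Normalized signal (vertical log axis, arbitrary units) of 12 genes in L9 hearts (red), L19 hearts (blue) and both readings of the NTG RNA (triangles), 1 value per channel. In Acta1 and Tfrc the L19 heart is apart from the other 3 channels on the low side, in Fkbp5 and Slc10a6 on the high side, and in Myl1 and Irs2 the lines lie on opposite sides of NTG.

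Among targets of Nrf2, the transcription factor that answers oxidative stress, the lines differed in single genes. Nqo1, a quinone reductase, was at 406 in L9 and 168 in L19 hearts, against 224 and 208 in the NTG readings (difference of 1.16), so that L9 was above and L19 below NTG. Gsta2, a glutathione transferase, was at 98.1 in L9 and 25.7 in L19 hearts, against 27.3 and 21.3 in the NTG readings (difference of 1.57). Gsta3 of the same family was on the other side (-0.76). Gsta genes are close paralogs, and how far their probes tell them apart was not tested. Of 37 measured members of the list 4 were at least 1.5-fold higher in L9 and 2 lower (median of 0.08). Gclc, the catalytic subunit of glutathione synthesis, Gsr, glutathione reductase, and Nfe2l2, the gene of Nrf2, differed by 0.12, 0.25 and -0.21. Sqstm1, the autophagy adaptor p62, had log2 ratios of 0.83 in L9 and 0.75 in L19.

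Tfrc, the transferrin receptor that brings iron into cells, was at 187 in L9 and 47.8 in L19 hearts, against 174 and 122 in the NTG readings (difference of 1.45). Its NTG readings were apart, but the L19 heart lay below both. Aplnr, the apelin receptor of endothelium, was at 85.2 in L9 and 24.1 in L19 hearts, against 104 and 80.1 in the NTG readings (difference of 1.44), whereas the 14 endothelial markers had a median of -0.03 with 1 higher (Aplnr) and 1 lower (Flt1, -0.65). Esm1, a proteoglycan of endothelial tip cells, was one of the 6 highest genes of all (2.23, signals of 20.4 in L9 and 4.66 in L19 hearts, against 8.67 and 9.30 in the NTG readings). The L19 signal of Esm1 was close to the limit of detection.

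Of 18 measured clock genes 3 were at least 1.5-fold higher in L9 and 1 was lower, with a median of 0.07. Dbp, a transcription factor whose mRNA swings widely over the day, was at 603 in L9 and 264 in L19 hearts, against 969 and 885 in the NTG readings (difference of 1.06), and Ciart, a repressor of the clock, at 35.7 in L9 and 16.4 in L19 hearts, against 51.8 and 43.1 in the NTG readings (difference of 0.85). The repressor Nr1d1 was also higher in L9 (0.61), while its paralog Nr1d2 had a difference on the other side short of 1.5-fold (-0.52, and -0.45 with its other probe). Per1, given above, was the lower gene. The sources used here do not say at what time of day the hearts were taken. The promoter of Ciart is printed because the E-box CACGTG, to which the clock's activators bind, occurs 3 times in it. Of all windows 6.02% hold this motif at least once, and so do 6 of the 21 windows of 16 clock genes (28.6%), 5 of the 26 windows of glucocorticoid-induced genes (19.2%), 2 of the 13 windows of the lowest genes (15.4%) and none of the 11 windows of the highest. The E-boxes are in capitals.
Ciart (chr3:95882229-95882478, - strand): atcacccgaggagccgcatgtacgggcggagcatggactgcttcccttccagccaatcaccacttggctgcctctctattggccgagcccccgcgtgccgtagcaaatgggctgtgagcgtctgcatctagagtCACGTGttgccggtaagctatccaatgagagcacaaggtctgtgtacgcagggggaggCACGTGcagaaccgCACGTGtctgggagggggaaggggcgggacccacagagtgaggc

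Large groups of metabolic and housekeeping genes were close to equal in the lines. No member was past 1.5-fold among 58 genes of the respiratory chain and ATP synthase (median of -0.10), 26 of the tricarboxylic acid cycle (-0.09), 22 of glycolysis (0.01), 13 of the pentose phosphate pathway and NADPH supply (0.07), 71 mitochondrial ribosomal proteins (0.08) or 29 proteasome subunits (0.05). The small differences leaned to 1 side in some of these groups. Below 0 were 47 of 58 respiratory chain genes and 18 of 26 of the tricarboxylic acid cycle. Above 0 were 52 of 71 mitochondrial ribosomal proteins and 20 of 29 proteasome subunits. For glycolysis 11 were above and 11 below, and for the pentose phosphate group 8 above and 5 below. Among 30 genes of fatty acid oxidation 1 was lower in L9, Pdk4, and 0 were higher. For 12 cardiomyocyte markers the counts were 0 and 0, with median log2 ratios to NTG of -0.55 in L9 and -0.38 in L19. Most members of these groups were bright. Reported targets of miR-143 and miR-145, 26 measured, had a median difference of -0.01 with 2 higher in L9 and 1 lower.

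Genes the study followed were for the most part alike in the lines. Hk2, the hexokinase of insulin-sensitive tissue, was at 503 in L9 and 512 in L19 hearts, against 1343 and 1353 in the NTG readings (difference of -0.02), so that both lines fell short of NTG by the same factor within the spread of the NTG readings. Atp2a2, the calcium pump of the sarcoplasmic reticulum, and Hk1 differed by 0.03 and 0.06. Igfbp5 was lower than NTG in both lines (-0.82 in L9 and -1.19 in L19). Of 21 measured genes that the study names, 2 were at least 1.5-fold higher in L9 (Nppa and Nqo1) and 1 lower (Igf1r). No probe is named here for G6pdx or Gsta1, and neither TG channel had Ern1 above the blank spots.

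**Figure D5:**
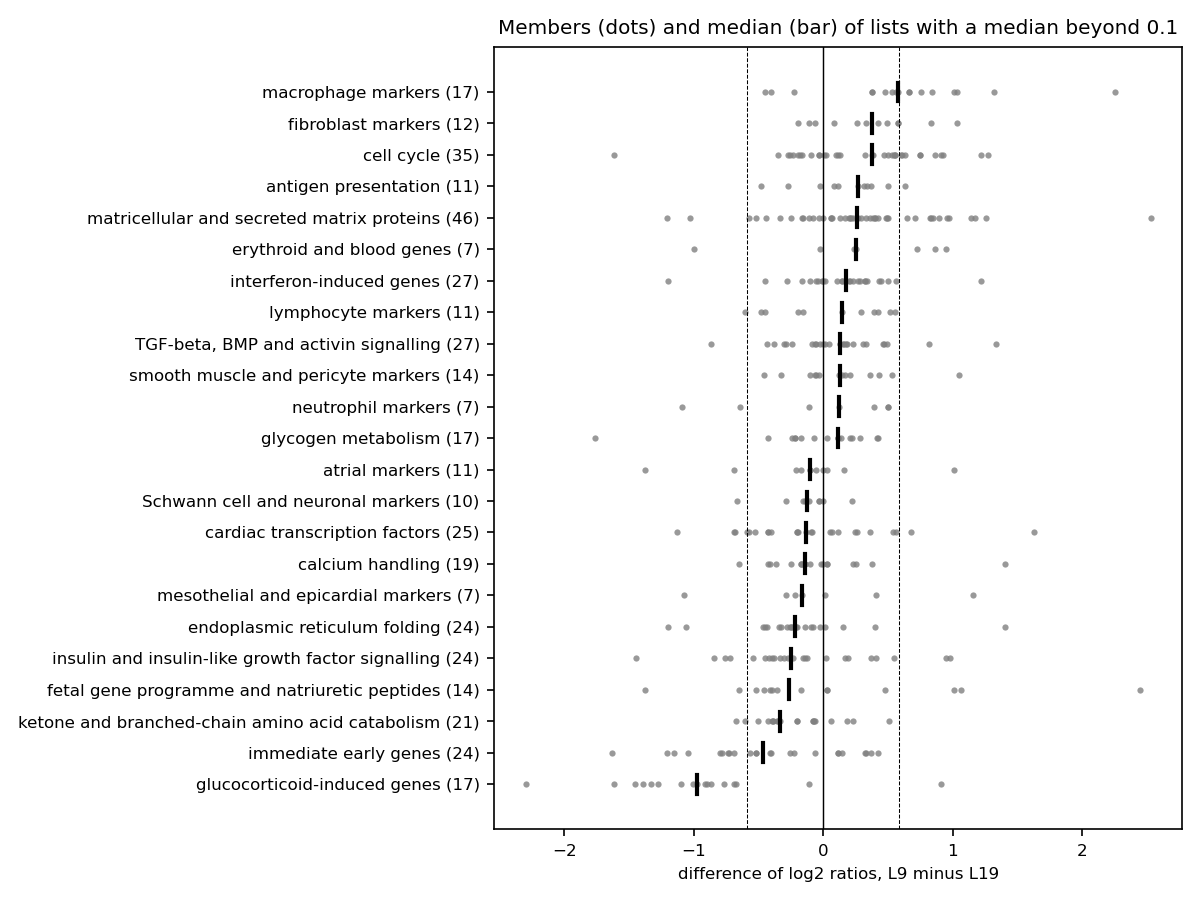
Difference of the log2 ratios, L9 minus L19 (horizontal axis), of the measured members (dots) and their median (bar) for the 23 of 54 gene lists whose median lies beyond 0.1, with the number of measured members in brackets and dashed lines at 1.5-fold. Macrophage markers are at the top and glucocorticoid-induced genes at the bottom, where the median lies past the dashed line at 1.5-fold lower in L9.

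The genome of the lines was looked at in 2 ways. Over the autosomes and the X chromosome, the median difference of named genes in the upper 50% of signal lay between -0.05 (chromosome 15, n = 252) and 0.03 (chromosome 6, n = 342), and the share at least 1.5-fold higher in L9 ran up to 3.05% (chromosome 3) and the share lower up to 3.97% (chromosome 15). Nnt, a mitochondrial transhydrogenase that is partly deleted in C57BL/6J, was at 640.0 in L9 and 1189 in L19 hearts, against 614 and 808 in the NTG readings (difference of -0.50). Where its probe lies relative to the deletion was not established. Of the other genes known to differ between C57BL/6 and DBA/2, Glo1, Alad and Gpnmb differed by 0.09, 0.01 and -0.07.

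The 2 widest differences of all belonged to probes that carry no gene name here, both in the upper 50% of signal. M400002945 was at 380.2 in L9 and 5.19 in L19 hearts, against 331 and 316 in the NTG readings, so that the L19 heart was 70.0-fold below L9 relative to NTG and the other 3 channels were close to each other. Its L19 signal was near the lowest one detected in that heart (3.09), so the size of the fold is uncertain. M400001455 was at 570.1 in L9 and 51.3 in L19 hearts, against 538 and 410.5 in the NTG readings (difference of 3.09). On the opposite side M400012679 was at 11.7 in L9 and 91.5 in L19 hearts, against 15.9 and 16.4 in the NTG readings (difference of -2.92), with the L19 heart as the high sample, and M400010743 at 3.55 in L9 and 22.3 in L19 hearts, against 27.7 and 27.4 in the NTG readings (difference of -2.67), with the L9 heart as the low one. The L9 signal of M400010743 was close to the lowest one detected in that heart (3.35), so the size of its difference is uncertain too.

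The agreement of probes bears on the error of a single value. For the 150 named genes measured by more than 1 probe, the differences of the brightest and the dimmest probe had a Pearson correlation of 0.15 across genes, and of 0.34 over the 51 genes with both in the upper 50% of signal. These points share the arrays and the RNA and are given as a description. Of the 12 genes whose brightest probe was past 1.5-fold, the dimmest probe had the same sign in 8 and was past 1.5-fold in 4. Ppargc1a was one of these 4. Most genes described above rest on 1 probe.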

How the data were processed

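Spot intensities of both channels were taken from the authors' scanner files (3D-Gene Extraction software), where they are raw. A table of log2 ratios, also deposited, served as an alternative. Each channel was corrected by subtracting the trimmed mean of its 2736 blank spots (5% removed from both ends), detection required a signal over this mean plus 2 SD, and Cy3 (TG) over Cy5 (NTG) was divided by its median in each array. The trimming and its rounding were chosen because they recover the deposited table, with the same probes present and none off by more than 0.001. The files' local background was not subtracted. Spots marked bad by the scanner software (9 and 3) gave no ratio. At most 1 gene probe per channel was near saturation.

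Probes were named through the platform table, with 3947 symbols updated through RefSeq synonyms (GRCm38.p6), 12622 current and 62 kept. Promoter sequences are from RefSeq (GRCm38.p6). Genes named in the text are the 12 highest and 12 lowest named genes of the upper 50% of signal, the 6 highest and lowest of all, up to 6 of each list with the largest differences, the genes the study or the strain list names, and unnamed probes among the 6 highest and lowest. The other glucocorticoid-induced genes, Ccn1, Cd14, Cd163, Egr1, Eno3, Fbn1, Fosl2, Gsn, Ier3, Jun, Junb, Lipe, Ltbp2, Lyve1, Mki67, Myc, Pdgfra, Pgam2, Plin1, Psat1, Smpx and Top2a were chosen after their values were seen. The members and the 54 lists were chosen with earlier results of these data known. The alternatives were normexp (limma 3.58.1, R 4.3.3), loess within each array, the deposited table, the upper 50% of signal, detection at 3 SD, TG signals without NTG, the mean over probes, each probe apart and a 2-fold cutoff. The steps were tested on simulated data. Computations used Python 3.11.15, numpy 2.4.6 and pandas 2.3.3. The number of arrays limits the precision.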

Additional observations from a re-analysis of the deposited data

Results flagged for a closer look

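For 6 genes described above and 1 unnamed probe the lines lay on opposite sides of NTG, each by at least 1.5-fold. Among all measured genes and probes 55 did so (0.315%), 34 with L9 above NTG and 21 with L19 above. With 1 RNA per line the difference itself was not tested. Myl1 had a difference of 1.96 (log2 ratio to NTG of 1.20 in L9 and -0.75 in L19) and Esm1 of 2.23 (1.24 in L9 and -1.00 in L19). Esm1 was dim, with an L19 signal close to the limit of detection. L9 was below and L19 above NTG for Smim3 (difference of -2.10), Arrdc2 (-1.48), Irs2 (-1.44), Klf15 (-1.33) and the dim unnamed probe M400004548 (-2.09), whose NTG readings were 10.6 and 6.11.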

How the results depend on the processing

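The counts of genes at least 1.5-fold higher and lower in L9 moved by more than 1.5 times under 3 of 9 alternatives. They were 91 and 102 with normexp background correction and an offset of 50, 161 and 217 in the upper 50% of signal, and 360 and 284 with a 2-fold cutoff in place of 1.5-fold. The SD of the difference fell to 0.18 with normexp, which adds 50 units to every signal and so shrinks dim ratios by construction. Of the 1246 genes higher and 1097 lower, 1210 and 1097 kept their direction with normexp, though 91 and 102 stayed past 1.5-fold. With TG signals compared directly, without NTG, 1172 and 1061 kept their direction and 703 and 691 stayed past 1.5-fold, and of 330 named genes and probes 79 moved by more than the spread of the NTG readings, among them Adgre1 (0.25), Igfbp3 (-0.40) and Ppm1k (-0.48), then short of 1.5-fold. By construction, each value moves by the difference of the gene's NTG readings, apart from a constant. That NTG difference was -0.57 for Adgre1 and 0.35 for Igfbp3. In that comparison Gzma, Itga2b and Retn reversed, at 0.63, 0.33 and -0.37, with their NTG readings apart. Medians of 54 gene lists moved by less than 1 SD of the NTG readings, except with normexp for macrophage markers (0.28) and cell cycle genes (0.10), and in the upper 50% of signal for 5 lists, of which cell cycle genes (-0.06) and the fetal programme (0.03) changed sign. The median of glucocorticoid-induced genes lay between -0.99 and -0.85 under all alternatives. No paired analysis was possible because each line has 1 RNA, and leaving out a replicate was not possible for the same reason.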

Other observations

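Probes above the blank spots in the TG channel of only 1 array give a bound in place of a difference. There were 988 that were detected in the L9 heart alone and 1288 in the L19 heart alone. Most of these lay near the limit of detection. The bound sets the TG signal of the detecting array against the higher of the lowest detected TG signal on the other array and the probe's own signal there. It was at least 4-fold for 7 probes in L9 and 6 in L19. The genes named here were chosen after their values were seen.

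Zpld1, which encodes a zona pellucida-like domain protein, had a TG signal at least 21.1-fold higher in L19, where it was 70.8, and its NTG readings were 3.06 and 4.51. Fos, an immediate early gene, was not detected in L9 and was at 22.5 in L19 hearts, against NTG readings of 11.4 and 9.88, at least 6.73-fold higher in L19. In the other direction Gbp2b, an interferon-induced guanylate-binding protein, was at 27.5 in L9 and not detected in L19 hearts, against NTG readings of 3.65 and 2.22 (at least 8.90-fold higher in L9). Gpr34, a receptor of myeloid cells, and Ccl7, a monocyte-attracting chemokine, were likewise detected in the L9 heart alone (at least 4.05-fold and 3.60-fold higher in L9). Both were detected in each NTG reading, at 11.0 and 9.15 for Gpr34 and at 15.1 and 16.0 for Ccl7.

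Interferon-induced genes held values on both sides. Gbp6 was at 84.1 in L9 and 179 in L19 hearts, against 33.7 and 31.4 in the NTG readings, above NTG in both lines and lower in L9 by a difference of -1.20, whereas Ifi44 was higher in L9 (1.22) at low signals. The median over 27 measured members was 0.17. Among cardiac transcription factors Vgll2, a cofactor of TEAD proteins, was above NTG in both lines, at 35.6 in L9 and 8.75 in L19 hearts, against 2.88 and 2.19 in the NTG readings (difference of 1.63).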
